A study of Arabidopsis thaliana with 12 samples.

Results

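The nuclear transcriptomes of Arabidopsis thaliana leaves and unopened floral buds were compared gene by gene in the Col-0 ecotype. Of the 37899 nuclear gene rows in the mRNA-Seq table (chromosomes 1 to 5, with the organellar and spike-in rows set aside), 18790 had a mean of at least 1 TPM (an abundance unit corrected for transcript length, scaled to the same total in every library) over the 4 Col-0 libraries and made up the comparison. The whole table held 38732 rows. Col-0 leaves (wild type, rosette and cauline leaves together) and Col-0 flowers (wild type, closed buds taken from the same plants) had 2 libraries each. Plants were 4 to 6 weeks old and had grown under 16 h of light and 8 h of darkness. Each mRNA-Seq library was made from total RNA of a separate pooled tissue collection. A further pair of libraries, from dcl234 flowers (buds of triple mutants carrying dcl4-2t, dcl3-1 and dcl2-1), entered the model for its estimate of the spread and is given beside the Col-0 values. Both groups are mixtures of cell types, so fewer cells of a type and less RNA per cell cannot be told apart in any value below.

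A leaf is mostly differentiated photosynthetic tissue. Its chloroplasts depend on nuclear genes for the antenna proteins that bind chlorophyll, for many photosystem subunits and for most Calvin cycle enzymes. A closed bud holds young sepals, petals, stamens and carpels, whose identities are set by MADS-box transcription factors, and it also holds dividing meristem cells, the tapetum that nourishes developing pollen, and pollen itself.

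The labelled tissues were checked against marker genes. Of 9 leaf markers, 7 were higher in Col-0 leaves, and MYB60 (guard cells) and SUC2 (phloem companion cells) did not pass the test, although they did without leaf replicate 2 (0.97 and 1.2). All 8 floral organ markers and all 5 pollen markers were higher in Col-0 flowers. The summed TPM of the floral organ markers was 6.8 and 13.0 in the leaf libraries and 322 and 473 in the Col-0 flower libraries. The mature pollen list described further on summed to 29.2 and 19.6 TPM in leaves against 1763 and 2251 TPM in Col-0 flowers, so its transcripts were not at 0 in either leaf library. The meiocyte markers ASY1 and SPO11-1 stayed below the level required for testing in every organ.

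Libraries differed in composition. A set of 7 ribosomal and miscellaneous RNA rows took 15.5% and 27.4% of nuclear TPM in the leaf libraries and 49.6% and 32.1% in the Col-0 flower libraries. Nuclear protein-coding genes took 82.1% and 69.9% in leaves against 47.5% and 64.4% in flowers. TPM is a share of the library. Over all 19064 rows tested the median log2 difference, leaves minus flowers, was -0.28. Over the nuclear genes, log2(TPM + 1) correlated at r = 0.939 between the leaf libraries, at 0.959 between the Col-0 flower libraries and at 0.674 to 0.694 between organs (across genes, which are not independent replicates). No sequencing depth is held in TPM values, so counting intervals are not given.

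More genes were higher in buds than in leaves. With limma on log2(TPM + 1) and a Benjamini-Hochberg adjusted p under 0.05, 2389 genes were higher in Col-0 leaves and 4658 were higher in Col-0 flowers, and 11743 were not called. Over all rows tested, 12.9% were called higher in leaves and 24.8% higher in flowers. Both leaf libraries lay above both Col-0 flower libraries for 22.5% of all rows and below both for 42.4%, called or not. The smallest called differences were 0.82 and -0.81 on the log2 scale. Very large differences were more frequent on the flower side, with 374 genes called at a log2 difference of -4 or beyond against 87 at 4 or beyond. The split between the directions depended on scaling: leaf calls were 33.9% of all calls with TPM as deposited, 53.4% after quantile normalization, 46.8% after scaling to the ERCC spike-ins and 21.1% after rescaling to the nuclear protein-coding total. Under TPM as deposited, quantile normalization and rescaling to the nuclear total or the nuclear protein-coding total, 2111 genes were called higher in leaves every time and 3499 higher in flowers every time, and all of these kept their sign with ERCC scaling. When Col-0 flowers replicate 1 was left out, 1292 genes were higher in leaves, and when replicate 2 was left out, 2606 were higher in flowers.

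**Figure D1:**
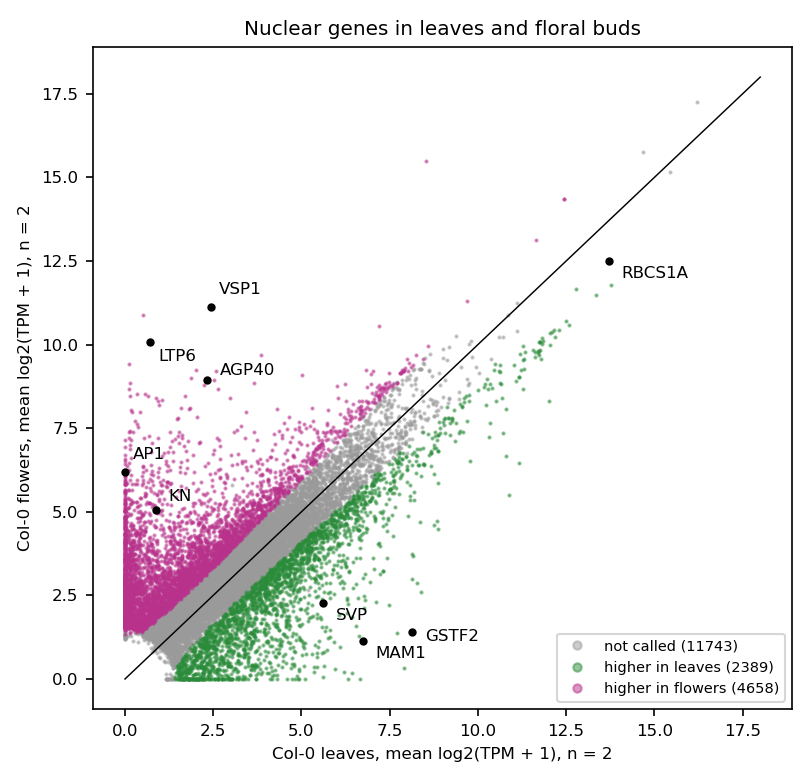
Mean log2(TPM + 1) of each tested nuclear gene in Col-0 leaves (x axis, n = 2) and Col-0 flowers (y axis, n = 2), with the 2389 genes called higher in leaves in green, the 4658 called higher in flowers in magenta and the line of equal level in black. Genes near 0 on the leaf axis reach far higher on the flower axis than the reverse, and 9 genes are labelled.

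Of the 18790 genes, 15344 had a mean of 1 TPM or more in both organs, 802 reached it only in leaves and 2644 only in flowers. A gene that entered only through its high organ had to differ, so counts over genes that passed the filter describe these libraries and are read against the percentages above. The gene lists below were chosen with earlier results of these data known. Their counts and medians describe the listed genes and are not independent evidence that a function marks an organ. At the edge of the filter, SRG1 lay just inside with 0.21 and 1.52 TPM in leaves and 1.15 and 1.12 TPM in flowers, and AT1G68200 lay just outside with 0 and 0.47 TPM in leaves and 1.94 and 1.58 TPM in flowers.

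The upstream sequences of 7 genes are shown as examples of short motifs searched in the gene groups of the paragraphs that follow. Each is the 250 bases directly before the RefSeq gene start (TAIR10.1), written 5′ to 3′ on the strand of the gene, and such a window can reach into a neighbouring gene. Capitals mark the motif named, on either strand.
The I-box letters GATAAG are in capitals for LHCB6 (chr1:5447881-5448130, minus strand), an antenna protein, for PSAD-1 (chr4:1230165-1230414, minus strand), a photosystem I subunit, and for RCA (chr2:16573693-16573942, minus strand), Rubisco activase.
LHCB6: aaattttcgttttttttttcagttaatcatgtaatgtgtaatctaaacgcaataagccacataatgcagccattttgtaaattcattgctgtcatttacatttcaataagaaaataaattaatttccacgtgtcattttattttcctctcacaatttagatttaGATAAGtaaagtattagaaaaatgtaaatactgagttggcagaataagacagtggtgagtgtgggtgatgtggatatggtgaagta
PSAD-1: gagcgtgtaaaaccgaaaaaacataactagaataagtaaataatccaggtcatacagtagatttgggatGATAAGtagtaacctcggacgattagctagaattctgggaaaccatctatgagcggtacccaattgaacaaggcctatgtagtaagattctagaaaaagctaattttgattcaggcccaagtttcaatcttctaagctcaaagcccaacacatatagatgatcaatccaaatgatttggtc
RCA: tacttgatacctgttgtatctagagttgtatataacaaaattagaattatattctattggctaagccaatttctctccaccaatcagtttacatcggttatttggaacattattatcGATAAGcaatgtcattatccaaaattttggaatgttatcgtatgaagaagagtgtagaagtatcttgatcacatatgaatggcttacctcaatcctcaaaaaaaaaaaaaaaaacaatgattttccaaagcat
The letters AACGG, the core of the element known from mitotic promoters, are in capitals for KN (chr1:2711001-2711250, minus strand), the syntaxin of the cell plate, for CYCB1;2 (chr5:1861704-1861953, minus strand), a mitotic cyclin, and for AUR1 (chr4:15842193-15842442, plus strand), a mitotic kinase.
KN: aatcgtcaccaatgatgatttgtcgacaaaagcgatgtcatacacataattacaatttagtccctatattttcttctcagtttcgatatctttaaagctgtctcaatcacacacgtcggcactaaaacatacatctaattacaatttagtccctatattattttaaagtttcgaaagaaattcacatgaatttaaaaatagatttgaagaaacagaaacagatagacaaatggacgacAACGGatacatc
CYCB1;2: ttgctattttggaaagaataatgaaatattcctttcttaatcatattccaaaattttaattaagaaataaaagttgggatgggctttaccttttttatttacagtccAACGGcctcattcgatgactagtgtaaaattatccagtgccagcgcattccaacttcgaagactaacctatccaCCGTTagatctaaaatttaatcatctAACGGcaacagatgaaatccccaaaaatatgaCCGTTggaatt
AUR1: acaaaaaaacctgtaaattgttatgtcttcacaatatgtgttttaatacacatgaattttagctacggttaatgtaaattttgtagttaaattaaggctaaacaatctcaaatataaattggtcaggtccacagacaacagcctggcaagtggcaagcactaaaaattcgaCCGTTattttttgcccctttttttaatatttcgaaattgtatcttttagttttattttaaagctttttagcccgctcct
The letters GGCCCA are in capitals for PCNA2 (chr2:12651754-12652003, minus strand), the sliding clamp of DNA replication.
PCNA2: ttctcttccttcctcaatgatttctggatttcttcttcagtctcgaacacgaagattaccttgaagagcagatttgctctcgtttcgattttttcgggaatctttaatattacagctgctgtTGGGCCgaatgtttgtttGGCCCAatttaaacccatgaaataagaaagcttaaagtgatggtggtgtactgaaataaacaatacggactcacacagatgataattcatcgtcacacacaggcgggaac

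All motifs were searched on both strands, and AACGG is not contained in any of the others with fixed letters. It was found in 57.1% of the 35 promoters of the mitosis list and in 20.6% of all 27442 protein-coding promoters of the same length. AACGG was not particular to mitosis, with 49.0% in core histone, 44.4% in kinesin, 37.5% in meiotic and 35.3% in reference gene promoters. Other lists ranged down to 5.88%, in the seed storage list. Tested genes held it in 22.0% of promoters, genes higher in leaves in 18.8% and genes higher in flowers in 23.4%. CYCB1;2 held 4 matches and KN and AUR1 held 1 each. GGCCCA was found in 51.5% of the 33 promoters of the S-phase list and in 45.3% of the 344 ribosomal protein promoters, against 13.7% of all. Tested genes held it in 17.2% of promoters, genes higher in leaves in 10.0% and genes higher in flowers in 15.3%. GATAAG was found in 19.0% of the 21 antenna promoters, 20.0% of the 30 Calvin cycle and photorespiration promoters and 25.7% of the 35 photosystem promoters, in 399 of the 2269 promoters of genes higher in leaves and in 491 of the 4288 promoters of genes higher in flowers, against 12.3% of all. The G-box CACGTG was found in 23.8% of the 21 antenna promoters against 6.49% of all, and the LHCB6 sequence above holds it in lower case. It was not particular to leaf lists, with 30.8% in the flavonoid list, 36.8% in the clock list and 41.2% in the seed storage list. Genes higher in leaves held it in 8.07% of promoters and genes higher in flowers in 7.86%. For the CArG box, the motif class of MADS-box proteins, the pattern searched fixed only its outer C and G letters. Every position between them could be any base. This loose pattern was found in 16.2% of promoters of genes higher in leaves, 17.5% of those higher in flowers and 17.5% of all. It was not restricted to CArG boxes, so these shares cannot show whether CArG boxes differed between the groups. A match is a stretch of letters and not a binding site.

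Genes of the light-harvesting antenna were higher in leaves almost throughout. Of 21 genes for chlorophyll-binding antenna proteins, all were tested, 19 were higher in leaves and 1, LHCB4.3, was higher in flowers, with a median log2 difference of 1.97, or 2.26 above the median of all rows. The leaf count fell to 9 (median 0.83) after quantile normalization, to 8 with ERCC scaling and to 6 without either flower replicate. LHCB1.3, the most abundant, had 18916 and 10321 TPM in the leaf libraries and 3034 and 4166 TPM in the Col-0 flower libraries. Both leaf libraries lay above both flower libraries, and the log2 difference was 1.97 (SE 0.43, adjusted p = 0.0016), a call lost without flower replicate 1 (1.75, adjusted p = 0.0873) or replicate 2 (2.2, adjusted p = 0.0611). LHCB1.4 had 6989 and 2491 TPM in leaves against 296 and 338 TPM in flowers and the largest difference of the list, 3.72 (SE 0.46). LHCB4.3, a minor antenna protein, ran the other way, with 24.98 and 15.2 TPM in leaves against 45.5 and 56.2 TPM in flowers (log2 difference -1.33, SE 0.37, adjusted p = 0.00897), and this call was lost without leaf replicate 2 (adjusted p = 0.0864) or flower replicate 2 (adjusted p = 0.0781). LHCB6 was not called without flower replicate 1 (adjusted p = 0.0573). LHCB7 was at 0.79 and was not called, although it was without leaf replicate 2 (1.19, adjusted p = 0.0436). The LHCB1 genes are near-identical copies, and reads shared between them were apportioned by the quantifier, so the split among them is uncertain.

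Photosystem and electron transport subunits moved in the same direction. All 35 were tested, 31 were higher in leaves and none was higher in flowers, with a median of 1.61. The leaf count was 16 (median 0.76) after quantile normalization, 3 with ERCC scaling, 5 without flower replicate 1, 12 without flower replicate 2 and 16 without leaf replicate 1. PETE2, a plastocyanin, was called at 1.3 (adjusted p = 0.0224) and changed sign to -0.11 after quantile normalization, and its call was lost without leaf replicate 1 (0.83) or either flower replicate (1.22 and 1.38). The 4 that were not called, NPQ4, PETE1, FD2 and PGR5, lay between 0.83 and 0.91, and both leaf libraries lay above both flower libraries for all 35 genes (this happened for 22.5% of all rows). PSBR, a photosystem II subunit, had 14389 and 7593 TPM in leaves and 2668 and 3048 TPM in flowers, and its call was lost without flower replicate 1 (adjusted p = 0.0846) or replicate 2 (adjusted p = 0.0817). PETE1 was called without leaf replicate 2 (1.13) and PGR5 without flower replicate 2 (1.02). PSAD-1 had 3033 and 1739 TPM in leaves and 459 and 590 TPM in flowers, a log2 difference of 2.14 (SE 0.42, adjusted p = 0.000659). Leaf replicate 1 was the higher of the leaf libraries in both genes.

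The Calvin cycle and photorespiration list had 30 tested genes, of which 25 were higher in leaves and none higher in flowers, with a median of 1.4, and the leaf count was 1 with ERCC scaling and 15 without leaf replicate 1 or without flower replicate 2. Not called were GAPA (0.7), PDTPI (0.41), CP12-1 (0.89), GLDP2 (0.71) and GDCH (0.71). RCA, which keeps Rubisco active, had 2580 and 1845 TPM in leaves and 447 and 507 TPM in flowers (log2 difference 2.19, SE 0.40, adjusted p = 0.00034). CAT2, the peroxisomal catalase of photorespiration, had 236 and 164 TPM in leaves and 55.9 and 61.0 TPM in flowers. RBCS1A, a Rubisco small subunit, was the most abundant member in flowers, where it had 5511 and 6053 TPM, against 14838 and 12324 TPM in leaves. Its groups did not overlap and its difference was smaller, 1.23 (SE 0.40, adjusted p = 0.0218), and the call was lost when leaf replicate 1 or either flower replicate was left out (adjusted p = 0.134, 0.16 and 0.147). Buds were low in these transcripts relative to leaves and not devoid of them: in nuclear protein-coding TPM, the antenna list took 15.7% and 9.62% of the leaf libraries and 4.21% and 3.5% of the Col-0 flower libraries.

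Pigment synthesis differed less. Of 31 tested genes of chlorophyll and carotenoid biosynthesis, 11 were higher in leaves, none was higher in flowers and 20 were not called, with a median of 0.80. The leaf count was 0 with ERCC scaling, 2 without leaf replicate 1, 3 without flower replicate 1 (when 1 gene was higher in flowers) and 6 without flower replicate 2. The xanthophyll cycle gene ABA1 (zeaxanthin epoxidase) had 95.5 and 56.0 TPM in leaves and 18.6 and 23.7 TPM in flowers (log2 difference 1.75, SE 0.37). NPQ1, which encodes the opposing de-epoxidase, had 67.1 and 32.8 TPM against 13.5 and 15.5 TPM, and this call was lost when leaf replicate 1 or either flower replicate was left out (adjusted p = 0.061, 0.067 and 0.0667). For both genes the leaf libraries lay above the flower libraries, as in 22.5% of all rows.

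**Figure D2:**
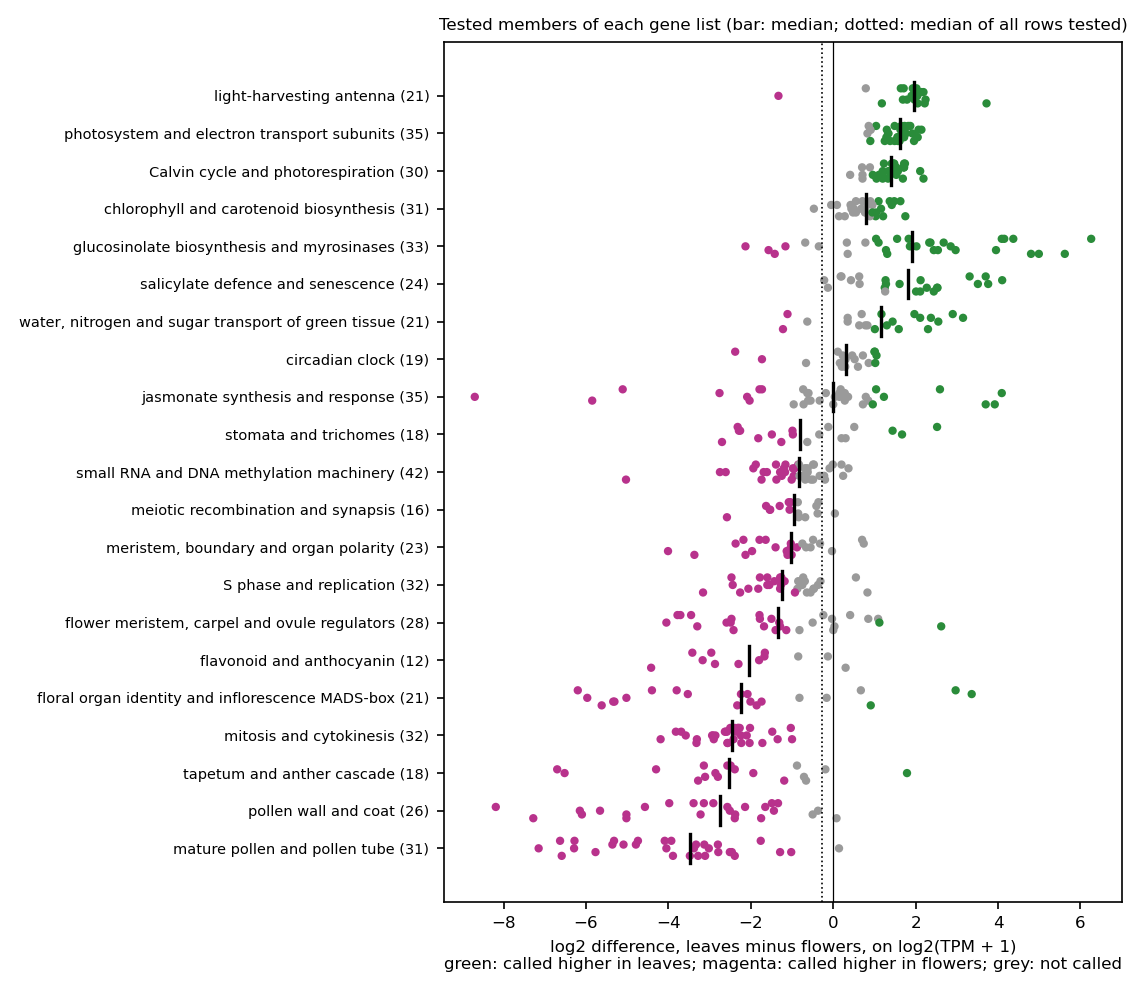
Log2 difference, leaves minus flowers, of each tested member of 21 gene lists (number of tested members in brackets), green where called higher in leaves, magenta where called higher in flowers and grey where not called. The bars are list medians, from 1.97 for the antenna to -3.48 for mature pollen, and the dotted line is the median of all rows tested, -0.28.

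Glucosinolate genes included some of the largest leaf differences. Glucosinolates are sulfur-rich defence compounds of the cabbage family, made from methionine or tryptophan and cleaved by myrosinases. Of 38 listed genes, 33 were tested, 24 were higher in leaves and 4 were higher in flowers, with a median of 1.92, and ERCC scaling left 15 and 0. The flower count was 2 without leaf replicate 2 and 1 without flower replicate 2. Not called besides TGG1 were BCAT3 (0.33), ESP (0.35), NSP1 (-0.68) and SOT16 (0.78), of which SOT16 was called without leaf replicate 1 (1.34). BCAT4, the aminotransferase that starts methionine chain elongation, had 95.0 and 76.4 TPM in leaves against 0 and 0.27 TPM in flowers (log2 difference 6.26, SE 0.40, adjusted p = 5.08e-09). MAM1, the next enzyme of that cycle, had 112 and 101 TPM in leaves and 0.8 and 1.65 TPM in flowers, a difference of 5.62. CYP79F1, which makes the aldoximes of the methionine branch, had 37.6 and 42.1 TPM against 0.07 and 0.54 TPM. Every one of these leaf values lay far above the flower values (above in 22.5% of all rows), and the leaf replicates were close.

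The regulators MYB28 and MYB29 (methionine branch) and MYB34 and MYB51 (tryptophan branch) were also higher in leaves, at 1.83 to 2.44, although MYB34 was not called without flower replicate 1 (adjusted p = 0.142) or replicate 2 (adjusted p = 0.0603). The 4 genes in the other direction were FMO GS-OX2 and FMO GS-OX4, which oxidize side chains, the nitrile specifier NSP5 and the myrosinase TGG2. FMO GS-OX4 was not called without flower replicate 2 (adjusted p = 0.0593), nor NSP5 without leaf replicate 2 (0.0564) or flower replicate 2 (0.0756). TGG2 had 343 and 191 TPM in leaves and 628 and 924 TPM in flowers (log2 difference -1.57, SE 0.43, adjusted p = 0.00795), and its call was lost when leaf replicate 2 or flower replicate 2 was left out (adjusted p = 0.0522 and 0.125). The other classical myrosinase, TGG1, had 591 and 294 TPM in leaves and 451 and 628 TPM in flowers, groups that overlapped. The list as a whole, TGG1 and TGG2 included, took between 0.323% and 0.337% of nuclear protein-coding TPM in all 4 libraries, and of all nuclear TPM it took 0.277% and 0.231% in leaves against 0.153% and 0.209% in flowers.

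Among the 12 genes with the largest leaf differences were 3 glucosinolate genes by list or by function. BCAT4 and MAM1 were joined by IGMT4, a methyltransferase of indole glucosinolates, with 383 and 206 TPM in leaves and 5.25 and 8.95 TPM in flowers (log2 difference 5.16, SE 0.39). IGMT1, IGMT2, IGMT3 and IGMT4 lie side by side on chromosome 1 (7386762 to 7400736), and all 4 were called higher in leaves at a log2 difference of at least 2. Such near-identical neighbours can share reads.

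The largest leaf difference by the rule was that of GSTF2, a glutathione transferase (chromosome 4, 1110343 to 1112033), with 209 and 376 TPM in leaves and 0.76 and 2.94 TPM in flowers (log2 difference 6.74, SE 0.41, adjusted p = 4e-09). MSRB6, a methionine sulfoxide reductase, had 139 and 72.0 TPM in leaves and was listed at 0 in both Col-0 flower libraries. TIP2;2, a water channel of the vacuole membrane, had 319 and 303 TPM against 6.21 and 6.3 TPM. RGF9, which encodes a peptide of the root meristem growth factor family, had 256 and 121 TPM against 2.29 and 5.49 TPM. The remaining genes of the 12 were PCR1, HIR2, EXT4, CYP71B7 and GSTF7, and EXT4 was not called without flower replicate 1 (adjusted p = 0.0767) or replicate 2 (adjusted p = 0.0818).

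**Figure D3:**
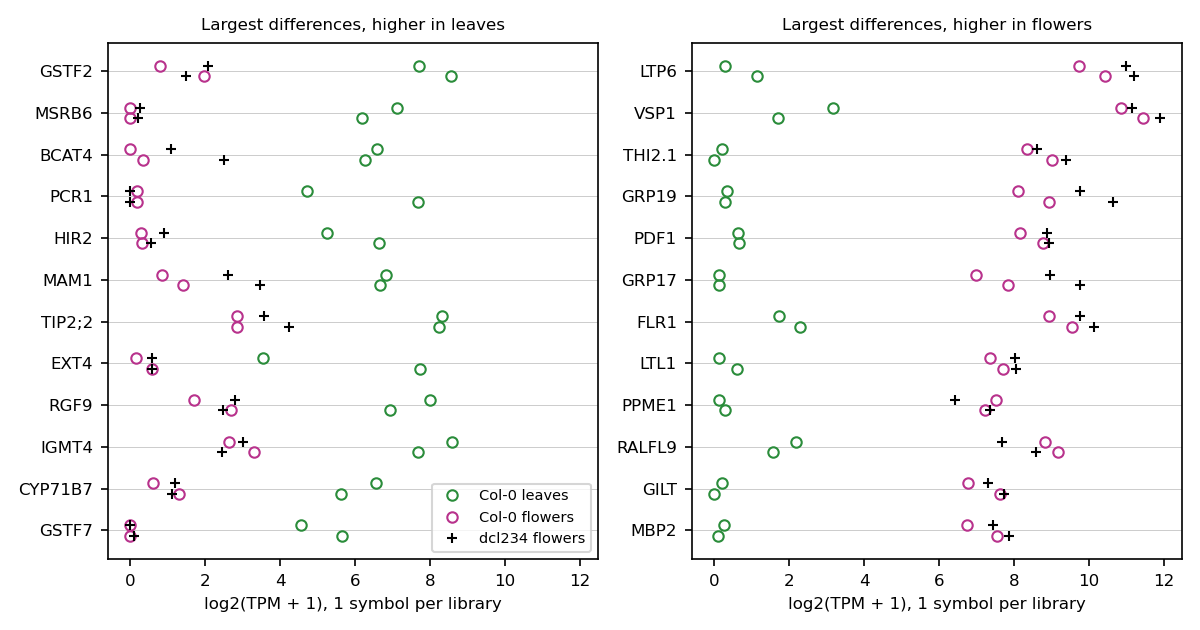
Log2(TPM + 1) in each library for the 12 genes with a symbol and the largest called difference in each direction (left, higher in leaves; right, higher in flowers), with Col-0 leaves in green, Col-0 flowers in magenta and dcl234 flowers as crosses. Organs that do not overlap were a condition for choosing the 24 genes. The leaf libraries lie far apart for PCR1 (25.6 and 204 TPM) and EXT4 (10.8 and 211 TPM).

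Salicylate defence and senescence genes were higher in leaves, with a wide spread between the leaf libraries. Of 24 tested genes, 16 were higher in leaves and none was higher in flowers, with a median of 1.81. The leaf count was 10 without either flower replicate, and 2 genes were higher in flowers without leaf replicate 2. PR1, the pathogenesis-related protein used as a salicylate marker, had 3.79 TPM in leaf replicate 1 and 44.9 TPM in leaf replicate 2, against 0 and 0.31 TPM in flowers (log2 difference 3.70, SE 0.67, adjusted p = 0.000325). PR2, a glucanase, had 6.6 and 41.9 TPM in leaves and 0 and 0.11 TPM in flowers. PR5 had 18.0 and 116 TPM in leaves and 1.55 and 3.72 TPM in flowers, and the calls of PR1 (adjusted p = 0.103 and 0.104) and PR5 (0.0728 and 0.0548) were lost when either Col-0 flower replicate was left out. Both leaf libraries lay above both flower libraries in all of these genes, as in 22.5% of all rows. Leaf replicate 2 was several times higher than leaf replicate 1.

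ORE1, a NAC transcription factor that promotes leaf senescence, was close in the leaf replicates, with 33.2 and 23.2 TPM against 1.17 and 1.93 TPM in flowers (log2 difference 3.51, SE 0.35, adjusted p = 6.28e-07). SAG21 was not called (without leaf replicate 2 it was, at -1.18), with 46.7 and 180 TPM in leaves and 83.8 and 137 TPM in flowers. Among the 37 tested genes of the WRKY family, many of which act in defence, 15 were higher in leaves and 1 was higher in flowers (2 without leaf replicate 2 or without flower replicate 1). With ERCC scaling 9 were higher in leaves, and with the nuclear protein-coding total 5 were higher in flowers.

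The leaf libraries also differed from each other. Of the 56 antenna and photosystem genes, 55 were higher in leaf replicate 1. Of the 24 defence and senescence genes, 18 were higher in leaf replicate 2. Over the tested genes, 270 were at least 4-fold higher in leaf replicate 2 and 95 in leaf replicate 1, on the TPM + 1 scale, against 125 and 61 for the Col-0 flower replicates. The largest of these, named after their values were seen, was PCC1, with 19.3 and 577 TPM in leaves against 1.14 and 7.72 TPM in flowers. EARLI1, a lipid transfer-like protein induced in defence, had 3.66 and 126 TPM in leaves and was listed at 0 in both Col-0 flower libraries. Neither was called without flower replicate 1 (adjusted p = 0.213 for PCC1 and 0.123 for EARLI1) or replicate 2 (0.113 and 0.155).

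Nitrogen assimilation and transport followed the leaf as well. Of 21 genes for water, nitrogen and sugar transport of green tissue, all tested, 12 were higher in leaves and 2 were higher in flowers, with a median of 1.17 (1 higher in flowers without flower replicate 2, 0 without leaf replicate 2). ERCC scaling left 5 higher in leaves and 0 in flowers. NIA2, the major nitrate reductase, had 258 and 261 TPM in leaves and 29.1 and 27.6 TPM in flowers (log2 difference 3.15, SE 0.36, adjusted p = 2.81e-06). NIA1, its paralog, had 25.3 and 37.7 TPM against 3.53 and 3.02 TPM. The nitrate transporter NRT1.1 had 15.3 and 22.2 TPM against 1.94 and 3.81 TPM. All 3 genes were higher in both leaf libraries (as were 22.5% of all rows), and the replicates were close.

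Signs of handling were uneven. Of 23 genes of wounding and heat stress at harvest, 13 were tested, 6 were higher in leaves and 2 were higher in flowers (1 without either flower replicate), and with ERCC scaling 1 was higher in leaves and none in flowers. Not called were HSP70B (0.24), CML24 (0.23), ZAT12 (1.11), TCH4 (-0.32) and RD29A (0.58). ZAT12 was called without leaf replicate 1 (2.0), and TCH4 (-1.28) and RD29A (1.37) were called without leaf replicate 2. ZAT10, a stress-induced zinc finger protein, had 19.9 and 29.1 TPM in leaves and 1.28 and 2.46 TPM in flowers (log2 difference 3.16). COR15A, a cold-induced chloroplast protein, had 169 and 77.6 TPM in leaves and 407 and 446 TPM in flowers (log2 difference -1.88), a call lost when either flower replicate was left out (adjusted p = 0.0554 and 0.0826). Their part in the other differences was not tested.

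Floral organ identity genes were mostly higher in buds. Of 25 MADS-box genes of floral organs and inflorescences, 21 were tested, 15 were higher in flowers and 3 were higher in leaves, with a median of -2.24 (9 and 2 with ERCC scaling). AP1, which specifies sepals and petals and the floral meristem (chromosome 1, 25982294 to 25986349), was listed at 0 in both leaf libraries and had 67.8 and 77.7 TPM in Col-0 flowers (adjusted p = 1.14e-09). SEP2, a cofactor of the organ identity proteins, was also listed at 0 in leaves and had 54.1 and 70.3 TPM in flowers. STK, the ovule identity gene, was listed at 0 in leaves and had 25.1 and 39.1 TPM in flowers.

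PI and AP3, the partners that specify petals and stamens, had 48.5 and 77.0 TPM and 30.1 and 58.4 TPM in flowers and no more than 0.27 TPM in any leaf library. AG, which specifies stamens and carpels, had 0.86 and 0.65 TPM in leaves and 17.03 and 31.9 TPM in flowers (log2 difference -3.80, SE 0.35). SEP3, the most abundant of the list, had 1.32 and 3.31 TPM in leaves and 108 and 144 TPM in flowers (log2 difference -5.31, SE 0.39). For all of these genes the flower libraries lay above the leaf libraries (this happened for 42.4% of all rows).

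The exceptions were SVP, SOC1 and SEP4. SVP, a repressor of flowering, had 55.6 and 42.0 TPM in leaves and 2.54 and 5.49 TPM in flowers (log2 difference 3.36, SE 0.35, adjusted p = 1.19e-06). SOC1, a promoter of flowering, had 92.4 and 82.6 TPM in leaves and 6.79 and 15.4 TPM in flowers (log2 difference 2.97, SE 0.39). Both were higher in each leaf library than in either Col-0 flower library, as were 22.5% of all rows. SEP4, a SEPALLATA gene of floral organ identity, had 12.0 and 14.4 TPM in leaves and 4.63 and 9.06 TPM in flowers, and its call (0.91, adjusted p = 0.0466) was lost when leaf replicate 1, leaf replicate 2 or flower replicate 1 was left out (adjusted p = 0.103, 0.218 and 0.159). FUL, AGL24 and AGL42 were not called, at -0.82, -0.16 and 0.67, though FUL was without flower replicate 1 (-1.18, adjusted p = 0.0303).

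Regulators of the flower meristem, carpels and ovules were higher in flowers in 17 of 28 tested genes (of 42 listed) and higher in leaves in 2, with a median of -1.35, and the leaf count was 1 without leaf replicate 1 or either flower replicate. ERCC scaling left 5 higher in flowers, and quantile normalization gave 7 higher in leaves. CRC, which acts in carpels and nectaries, was listed at 0 in leaves and had 8.17 and 17.59 TPM in flowers. INO, needed for the outer integument of the ovule, was listed at 0 in leaves and had 6.82 and 14.3 TPM in flowers. ALC, which acts in fruit opening, had 0.49 and 0 TPM in leaves and 17.2 and 21.3 TPM in flowers (log2 difference -4.05, SE 0.33). The genes in the other direction were BEE2 and BEE3, basic helix-loop-helix factors of brassinosteroid response. BEE2 was not called without leaf replicate 1 (adjusted p = 0.33), flower replicate 1 (0.228) or flower replicate 2 (0.0951), and BEE3 had 12.4 and 6.91 TPM in leaves against 0.49 and 0.88 TPM in flowers.

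Among meristem and polarity genes, 15 of 23 tested genes (of 30 listed) were higher in flowers and none was higher in leaves, with a median of -1.03. The flower count was 2 with ERCC scaling and 8 without flower replicate 2, quantile normalization gave 3 genes higher in leaves, and without leaf replicate 2 there was 1 gene higher in leaves. STM, the homeobox gene that maintains meristems, was listed at 0 in leaves and had 12.1 and 19.0 TPM in flowers (adjusted p = 5.67e-08). BP, a related homeobox gene, was listed at 0 in leaves and had 7.01 and 12.4 TPM in flowers.

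Cell division genes were higher in buds. All 32 tested genes of mitosis and cytokinesis (of 35 listed) were higher in flowers, with a median of -2.46, and 7 were called with ERCC scaling. This list summed to only 18.6 and 16.4 TPM in leaves. Most of its genes thus passed the filter through their flower values, which partly sets the count and the median. KN had 1.24 and 0.5 TPM in leaves and 23.4 and 44.7 TPM in flowers (log2 difference -4.19, SE 0.37, adjusted p = 1.36e-07). CYCB1;2 had 0.82 and 0.81 TPM in leaves and 18.4 and 27.2 TPM in flowers. AUR1 had 0.63 and 0.11 TPM in leaves and 12.0 and 18.9 TPM in flowers. CDC20.1, an activator of the anaphase-promoting complex, had 0.51 and 0.45 TPM in leaves and 14.1 and 28.0 TPM in flowers. In each of these genes both Col-0 flower libraries lay far above both leaf libraries (above in 42.4% of all rows).

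The S-phase list was less uniform, with 19 of 32 tested genes higher in flowers, none higher in leaves and a median of -1.25. The flower count was 0 with ERCC scaling, 30 with the nuclear protein-coding total, 10 without flower replicate 2 and 12 without leaf replicate 1, and 1 gene was higher in leaves without leaf replicate 2 or flower replicate 2. CYCD3;3, a D-type cyclin, had 2.29 and 2.89 TPM in leaves and 27.4 and 35.1 TPM in flowers (log2 difference -3.16, SE 0.33). PCNA2 had 3.3 and 4.7 TPM in leaves and 21.8 and 32.0 TPM in flowers (log2 difference -2.47, SE 0.34). Of 44 tested core histone genes, 35 were higher in flowers and 3 higher in leaves, with a median of -1.83, and with ERCC scaling 1 was called in each direction. Of 319 tested ribosomal protein genes, 177 were higher in flowers and 2 higher in leaves, with a median of -1.11, and these genes took 4.26% and 7.89% of nuclear protein-coding TPM in leaves against 12.2% and 13.6% in flowers. The ribosomal count depended on scaling and on single libraries, with 4 genes higher in flowers with ERCC scaling, 19 genes higher in flowers without flower replicate 2 and 38 without leaf replicate 1, and 1 higher in leaves without flower replicate 1.

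Few meiotic genes were measurable. Of 40 listed genes, 16 were tested, 8 were higher in flowers and none was higher in leaves, with a median of -0.95, and the flower count was 0 with ERCC scaling, 14 with the nuclear protein-coding total, 5 (median -0.2) after quantile normalization and 4 without flower replicate 2. DMC1, the meiotic recombinase, had 0.31 and 0 TPM in leaves and 1.94 and 2.74 TPM in flowers (log2 difference -1.53, SE 0.34). OSD1, which controls entry into the second meiotic division and is also active in mitosis, had 0.23 and 0.24 TPM in leaves and 5.64 and 7.24 TPM in flowers.

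Tapetum and pollen coat genes gave some of the largest flower differences. Of 22 genes of the tapetum and anther cascade, 18 were tested, 13 were higher in flowers and 1 was higher in leaves, with a median of -2.53 (5 and 0 with ERCC scaling). Not called were BAM1 (-0.88), BAM2 (-0.19), MYB33 (-0.71) and MYB65 (-0.66), although BAM1 was without flower replicate 1 (-1.18) and with the replicate block (-0.88). ATA7, a lipid transfer-like protein of the tapetum, was listed at 0 in leaves and had 97.7 and 109 TPM in Col-0 flowers. LTP12, another tapetal lipid transfer protein, was listed at 0 in leaves and had 72.6 and 113 TPM in flowers. The exception was TPD1, a secreted ligand of tapetum specification, with 18.22 and 11.6 TPM in leaves and 3.42 and 3.57 TPM in flowers (log2 difference 1.79, SE 0.33, adjusted p = 0.000367).

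Of 26 tested genes of the pollen wall and coat (of 28 listed), 23 were higher in flowers and none higher in leaves, with a median of -2.74, and ERCC scaling left 12. NEF1 (-0.37), DEX1 (-0.5) and NPU (0.08) were not called. GRP19, an oleosin-like protein of the pollen coat, had 0.27 and 0.24 TPM in leaves and 275 and 487 TPM in flowers (log2 difference -8.19, SE 0.41, adjusted p = 9.16e-10). GRP17, of the same family, had 0.09 and 0.1 TPM in leaves and 125 and 228 TPM in flowers. These genes also share a location, since GRP14, GRP18, GRP17 and GRP16 lie next to each other on chromosome 5 (2377703 to 2387249) with GRP19 directly beyond (2388225 to 2389249). A similar run on chromosome 1 (28501434 to 28514284) held EXL4 and EXL6, extracellular lipases of the pollen coat, AT1G75920 and ATA27. Runs of at least 4 neighbouring coding genes called in the same direction at a log2 difference of 2 or beyond numbered 5 in all, 4 of them higher in flowers and 1, the IGMT genes, higher in leaves.

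Mature pollen genes were higher in flowers in 30 of 31 tested genes (of 39 listed), with a median of -3.48, the lowest of all lists. The list summed to only 29.2 and 19.6 TPM in leaves, so most members passed the filter through their flower values. The count and the median are therefore partly set by the filter. PPME1, a pectin methylesterase of the pollen tube, had 0.11 and 0.23 TPM in leaves and 184 and 148 TPM in flowers (log2 difference -7.15, SE 0.37, adjusted p = 1.14e-09). AGP40, a pollen arabinogalactan peptide, had 6.24 and 2.48 TPM in leaves and 408 and 600.2 TPM in flowers (log2 difference -6.63, SE 0.46). AGP6, which acts in pollen tube growth, had 2.33 and 1.32 TPM in leaves and 189 and 249.99 TPM in flowers. DUO3, a regulator of sperm cell development, was the member that was not called, at 0.14. The leaf sums of the list were 1.45% and 0.977% of the mean flower sum.

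The flower groups did not share a single level for these lists. The mature pollen list summed to 1763 and 2251 TPM in Col-0 flowers and to 834 and 1551 TPM in dcl234 flowers. The pollen wall and coat list ran the opposite way, with 756 and 1317 TPM in Col-0 flowers and 2457 and 4289 TPM in dcl234 flowers, and the tapetum list had 290 and 393 TPM against 809 and 1199 TPM. The groups did not overlap in any of the 3 lists, but how often these flower groups are apart over all rows was not counted. Their libraries differed in composition: the 7 ribosomal and miscellaneous rows took 49.6% and 32.1% of nuclear TPM in Col-0 flowers. In dcl234 flowers they took 16.5% and 6.5%. The difference between the flower groups was not tested. The leaf libraries lay below both flower groups in each list.

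**Figure D4:**
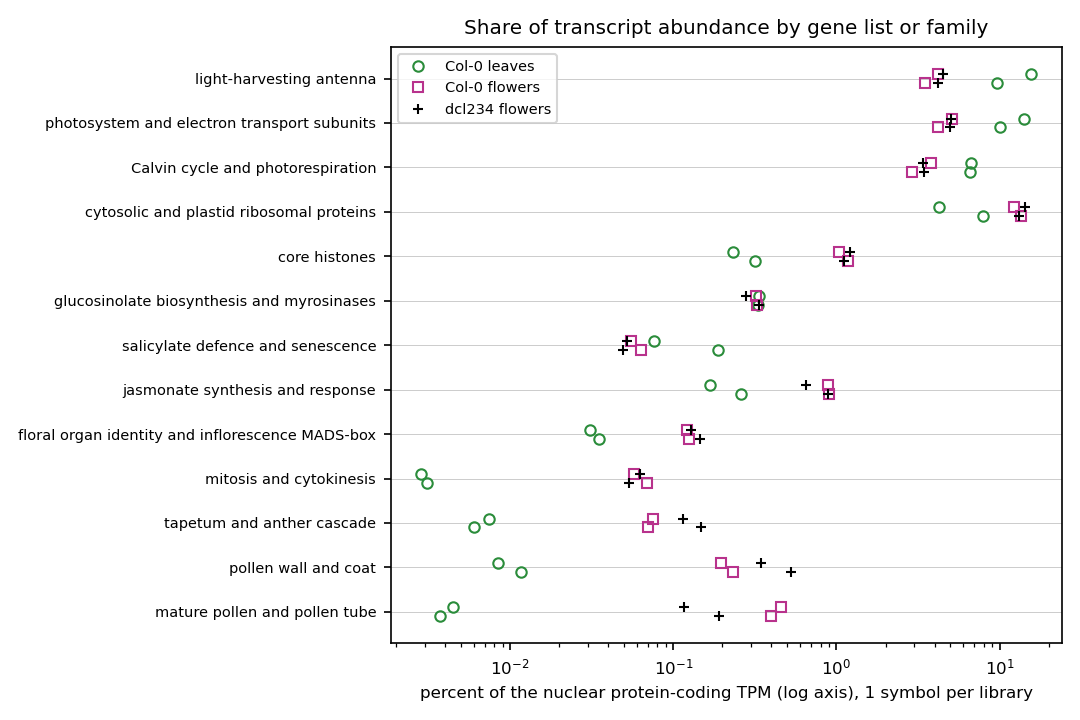
Share of nuclear protein-coding TPM (percent, log axis) taken by 11 gene lists and 2 gene families in each library, with Col-0 leaves as circles, Col-0 flowers as squares and dcl234 flowers as crosses. The antenna list falls from 15.7% and 9.62% in leaves to 4.21% and 3.5% in Col-0 flowers, and the mature pollen list rises from 0.00447% and 0.00371% to 0.455% and 0.399%.

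The largest flower differences by the rule were not all pollen genes. LTP6, a lipid transfer protein (chromosome 3, 2664069 to 2664888), had 0.23 and 1.2 TPM in leaves and 846 and 1382 TPM in Col-0 flowers (log2 difference -9.36, SE 0.41, adjusted p = 3.83e-10). THI2.1, a thionin with antimicrobial activity, had 0.17 and 0 TPM in leaves and 324 and 516 TPM in flowers. PDF1, an epidermal cell wall protein, had 0.56 and 0.6 TPM in leaves and 284 and 439 TPM in flowers. The other genes of the 12 were VSP1, GRP19, GRP17, FLR1, LTL1, PPME1, RALFL9, GILT and MBP2, and the rule required that the organs did not overlap. AT2G20870, which has no symbol and is annotated as a cell wall protein precursor, was named after its values were seen: it had 0.42 and 0.44 TPM in leaves and 1624 and 2175 TPM in flowers (log2 difference -10.36), the most negative value of any nuclear gene.

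Jasmonate genes were divided. Jasmonate is a wound hormone that is also needed for stamen maturation. Of 35 tested genes, 7 were higher in leaves, 8 were higher in flowers and 20 were not called, with a median of 0. Those are 20.0% and 22.9%, against 12.9% and 24.8% of all rows, so the flower count is near the share over all rows. The leaf count was 3 without flower replicate 1 and 4 without flower replicate 2, when the flower count was 5. The counts were 4 and 3 with ERCC scaling, and the median ranged from -0.32 with the nuclear protein-coding total to 0.68 with ERCC scaling. The synthesis enzymes AOS and AOC2 were higher in leaves, where AOS had 125 and 68.5 TPM against 5.14 and 7.4 TPM in flowers and AOC2 had 130.0 and 171 TPM against 7.68 and 8.02 TPM (log2 differences 3.70 and 4.09). The defensin PDF1.2 had 18.4 and 13.8 TPM in leaves against 0 and 0.26 TPM.

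On the flower side stood storage proteins and stamen regulators. VSP1, a vegetative storage protein, had 7.97 and 2.27 TPM in leaves and 1850 and 2748 TPM in flowers (log2 difference -8.70, SE 0.48, adjusted p = 1.53e-09). VSP2 had 13.5 and 13.2 TPM in leaves and 706 and 975 TPM in flowers (log2 difference -5.85). MYB21, a transcription factor of stamen and petal growth, was listed at 0 in leaves and had 26.0 and 43.1 TPM in flowers. MYB24, which acts with it, had 0 and 0.73 TPM in leaves and 4.3 and 14.1 TPM in flowers. For each of these genes both flower libraries lay above both leaf libraries, as they did for 42.4% of all rows.

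Flavonoid genes were higher in flowers in 9 of 12 tested genes (of 26 listed) and none was higher in leaves, with a median of -2.05, and ERCC scaling left 1. UGT78D2 (-0.13), TTG1 (0.3) and TT19 (-0.85) were not called, although TT19 was without leaf replicate 2 (-1.29). FLS1, flavonol synthase, had 0.52 and 1.53 TPM in leaves and 31.8 and 52.4 TPM in flowers (log2 difference -4.42, SE 0.37, adjusted p = 7.47e-08). CHS, the first enzyme of the pathway, had 5.76 and 25.3 TPM in leaves and 129 and 155 TPM in flowers (log2 difference -3.42), a call lost when flower replicate 2 was left out (adjusted p = 0.053). The other regulators, enzymes and transporters of the list that were not tested, 14 in all, had a mean under 1 TPM.

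Genes of small RNAs and DNA methylation were called in 1 direction. Of 42 tested genes (of 51 listed), 20 were higher in flowers and none was higher in leaves, with a median of -0.82. The flower count was 1 with ERCC scaling, 35 with the nuclear protein-coding total, 11 without flower replicate 2 and 12 without leaf replicate 2. Quantile normalization gave 14 higher in flowers and 3 in leaves (median -0.33). AGO9, an Argonaute, had 0.15 and 0 TPM in leaves and 28.7 and 40.4 TPM in flowers (log2 difference -5.03, SE 0.32, adjusted p = 5.53e-09). AGO5 was listed at 0 in leaves and had 4.13 and 7.8 TPM in flowers. CLSY3, which recruits RNA polymerase IV in reproductive tissue, was listed at 0 in leaves and had 3.86 and 6.72 TPM in flowers. AGO4, the main effector of RNA-directed DNA methylation, had 4.85 and 2.89 TPM in leaves and 13.6 and 22.1 TPM in flowers (log2 difference -1.94, SE 0.35). In all 4 genes the flower libraries were the higher ones, as in 42.4% of all rows.

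Of the Dicer genes mutated in dcl234, DCL3 had 0.83 and 0.34 TPM in leaves and 3.85 and 4.3 TPM in Col-0 flowers (log2 difference -1.69, SE 0.36, adjusted p = 0.0015) and 0.4 and 0.37 TPM in dcl234 flowers. DCL4 had 1.41 and 1.54 TPM in leaves and 3.2 and 4.51 TPM in Col-0 flowers (adjusted p = 0.0286), and its call was lost when leaf replicate 1, leaf replicate 2 or flower replicate 2 was left out (adjusted p = 0.0929, 0.0558 and 0.0703). DCL2 had 1.73 and 0.92 TPM in leaves and 2.07 and 3.26 TPM in Col-0 flowers and was not called, although it was without leaf replicate 1 (-0.91, adjusted p = 0.0478).

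Epidermal patterning and the clock showed smaller contrasts. Of 18 tested stomatal and trichome genes (of 28 listed), 9 were higher in flowers and 3 in leaves (0 and 1 with ERCC scaling). TMM and ER, receptors of stomatal spacing, were higher in flowers, and TMM had 0.42 and 0.36 TPM in leaves against 5.48 and 6.48 TPM in flowers. ETC2, an inhibitor of trichome formation, was higher in leaves (11.9 and 7.63 TPM against 0.64 and 1.07 TPM), and its relative TRY was higher in flowers (11.8 and 12.5 TPM against 0.9 and 1.14 TPM). Of 19 clock genes, 13 were not called, 4 were higher in leaves (1 or 2 without leaf replicate 1 or either flower replicate) and 2 were higher in flowers (1 without flower replicate 2), against 8 in leaves after quantile normalization and none in either direction with ERCC scaling. The clock shares were 21.1% higher in leaves and 10.5% higher in flowers, against 12.9% and 24.8% of all rows. Markers of seed, root and lignified stem were mostly below the level for testing, with 3 of 17, 3 of 17 and 6 of 13 tested. Higher in flowers were 1, 2 and 3 of the tested genes (33.3%, 66.7% and 50.0%, against 24.8% of all rows). None was higher in leaves, and ERCC scaling left none called. SESA2 (-1.0), OLEO4 (-1.05), SCR (-0.6), IRX5 (-0.61), XCP1 (-0.53) and XCP2 (-0.41) were not called. SESA2 was called without flower replicate 2 (-1.2), leaf replicate 1 (-0.87) or leaf replicate 2 (-1.14), OLEO4 without leaf replicate 2 (-1.67) and SCR without flower replicate 1 (-0.85).

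Genes often used as references were not all level. Of 17, 14 were not called (9 were higher in flowers with the nuclear protein-coding total), UBQ10 was higher in leaves (1383 and 1330.2 TPM against 370 and 464 TPM in flowers, log2 difference 1.71), and the tubulins TUA4 and TUB2 were higher in flowers (log2 differences -2.34 and -2.11). ACT2, an actin, was at 0.62 and the phosphatase subunit PP2AA3 at -0.04, neither called. The shares of reference genes called were 5.88% in leaves and 11.8% in flowers, against 12.9% and 24.8% of all rows.

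Some genes were detected in a single organ. Listed at 0 in both Col-0 flower libraries and at 1 TPM or more in both leaf libraries were 91 nuclear genes, 59 of them protein coding, and 16 had a mean of 10 TPM or more. The reverse held for 802 genes, 688 of them protein coding, and 179 had a mean of 10 TPM or more. Both sets were drawn from all 37899 nuclear gene rows, with median levels of 4.23 TPM (leaf set) and 3.71 TPM (flower set). Both leaf libraries had fewer genome-matching reads than either Col-0 flower library. A value of 0 is therefore a weaker sign of absence in leaves, and the effect of depth on the counts was not tested. The leaf set was led by MSRB6, EARLI1, GSTF7, AZI1, the receptor-like kinase CRK4 and FUT4, a fucosyltransferase of the cell wall. The flower set was led by ATA7, LTP12, ATA27, EXL4, AP1 and SEP2. In dcl234 flowers, 773 of the 802 genes of the flower set were above 0 in both libraries, and 45 of the 91 genes of the leaf set were.

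By type of transcript, 2270 of 17617 protein-coding genes (12.9%) were higher in leaves and 4288 (24.3%) were higher in flowers. Small nucleolar RNAs, which guide ribosomal RNA modification, were higher in flowers for 92 of 203 rows and higher in leaves for 11, with a median of -1.35. Small nuclear RNAs of the spliceosome were higher in flowers for 13 of 24 rows and in leaves for none. The mRNA-Seq libraries were made from total RNA, and rows of RNAs without a poly(A) tail depend on how much of them was carried through. The most abundant nuclear rows in both organs were ribosomal or miscellaneous RNAs, led by AT3G06365 with 61824 and 93201 TPM in leaves and 187788 and 127891 TPM in flowers, a difference that was not called (adjusted p = 0.0832).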

How the data were processed

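Paired-end mRNA-Seq libraries with ERCC spike-ins were used, 2 each of leaves and flowers of Col-0 and of flowers of dcl234. RSEM was run by the authors on the TAIR10 genome with the spike-in sequences (version not given in the sources used here). They deposited TPM values for Araport11 gene models, which have the same total in each library and hold no depth. The paper's supplement gives genome-matching reads per library, and both leaf libraries had fewer than either Col-0 flower library. Reads shared by near-identical genes were divided by the model. The sRNA-Seq files were not used here, and 0 columns of the table lacked a sample.

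Gene rows with a mean of at least 1 TPM over the 4 Col-0 libraries were tested with limma 3.58.1 (R 4.3.3) on log2(TPM + 1) with a mean-variance trend. All 6 libraries were fitted as 3 groups, with Benjamini-Hochberg adjustment over 19064 rows and a threshold of 0.05. A fold change on this scale understates low genes. The p-values measure the spread between pooled tissue collections. On simulated data the fit recovered 0% of log2 changes of 1, 40.3% of changes of 2 and 71.2% of changes of 3 among 19064 genes, with 9 false calls. Few genes were changed there (67, 67 and 66), against 7199 rows called in the data, so the adjusted threshold was stricter than in the data. The buds came from the plants that gave the leaves, but the sources do not say that equal replicate numbers mark equal plants. Replicate differences of leaves and Col-0 flowers correlated at 0.0373 across genes. Strand is not given in the sources used here, so overlapping and antisense genes cannot be told apart.

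Gene lists (745 entries matched to RefSeq loci, 42 symbols not matched) and product-name families were described by counts and medians, without set tests. Members and lists were chosen with earlier results of these data known. Named were the 12 genes with a symbol, non-overlapping groups, at least 10 TPM and the largest called difference in each direction; up to 4 called genes per direction and the most abundant gene of each list; uncalled members of a list where 5 or fewer; the 10 most abundant rows; and the 6 leading organ-restricted genes. The text names a part of the called and abundant genes that this rule gives. Genes named beyond this rule to illustrate a list or a replicate difference were chosen after their values were seen. Alternatives covered the pseudocount, filter, scaling, trend, libraries fitted, replicate block, fold and each replicate left out. Coordinates and upstream sequences are from RefSeq TAIR10.1.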

Additional observations from a re-analysis of the deposited data

How the results depend on the processing

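Counts of called genes depended on scaling. Genes higher in leaves numbered 4813 after quantile normalization and 657 after scaling to the ERCC total, and genes higher in flowers numbered 747 after ERCC scaling, 2643 at a mean of at least 5 TPM (fewer rows tested) and 8878 after rescaling to the nuclear protein-coding total, an alternative chosen after seeing the data. The ERCC rows made up 0.179% to 0.475% of TPM in the Col-0 libraries, and the replicates of an organ differed in it. The median log2 difference of nuclear genes was -0.29 as deposited, 0.07 after quantile normalization, 0.28 with ERCC scaling, -0.19 with the nuclear total and -0.61 with the protein-coding total. Leaving out a replicate gave 1292 to 2396 genes higher in leaves and 2606 to 5312 higher in flowers. Of the 2389 leaf calls, 1 changed sign in any of the rescalings, with quantile normalization, and none of the 4658 flower calls did. List medians kept their sign in all 4 rescalings for 24 of 26 lists (jasmonate and reference genes did not). Requiring at least 5 TPM left 23 genes in leaves alone and 254 in flowers alone. The replicate block gave 2596 genes higher in leaves and 4999 in flowers, sharing 2387 and 4653 with the calls made without it, and among the named genes it lost no call and added OLEO4, ZAT12 and BAM1. Among 181 named genes, 2684 values were recomputed: 135 lost the call, 43 of them with ERCC scaling, and 66 gained it. Of the 39 sign changes, 1 was of a called gene, PETE2. Signs changed with ERCC scaling for PP2AA3 (0.6), XCP2 (0.14), DEX1 (0.1), BAM2 (0.41), SAG21 (0.47), AGL24 (0.29), NEF1 (0.23), UGT78D2 (0.42), TGG1 (0.34), TCH4 (0.36), with quantile normalization for PP2AA3 (0.13), PETE2 (-0.11), XCP2 (0), AT3G06365 (0), BAM2 (0.07), AGL24 (0.53), XCP1 (0.15), UGT78D2 (0.3), IRX5 (0.22), with the nuclear total for PP2AA3 (0.08), with the protein-coding total for DUO3 (-0.09), NPU (-0.24), TTG1 (-0.02), CML24 (-0.09), and with a replicate left out for PP2AA3 (-0.37 to 0.3), HSP70B (-0.07 to 0.55), ESP (-0.04 to 0.74), DUO3 (-0.04 to 0.33), BAM2 (-0.56 to 0.17), BCAT3 (-0.04 to 0.7), NPU (-0.11 to 0.28), SAG21 (-1.18 to 0.74), AGL24 (-0.45 to 0.13), UGT78D2 (-0.43 to 0.18), TGG1 (-0.85 to 0.15), RD29A (-0.21 to 1.37), TCH4 (-1.28 to 0.65). The causes were not tested. TPM holds no depth, and limits of detection were not estimated.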
